A study of Mus musculus with 6 samples.

Results

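The genes described here are 10 that respond to glucocorticoid hormones, to metals or to both, in the prefrontal cortex of mice carrying a Shank3 mutation. They were chosen by name from the 54134 gene symbols in the count files: Nr3c1, Tsc22d3, Fkbp5, Sgk1, Zbtb16, Cdkn1a, Ddit4, Txnip, Mt1 and Mt2. Shank3 encodes a scaffold protein of excitatory synapses, and GSK-LSD1 inhibits the histone demethylase LSD1. Each of the 3 groups held 2 libraries of bulk RNA, described as separate mice aged 6 to 8 weeks. The first group was Shank3 +/∆C mice given GSK-LSD1, called treated mutants below. The second was Shank3 +/∆C mice given vehicle, called vehicle mutants. The third was WT mice, a cross of C57BL/6 and C3H, also given vehicle. Both mutant groups carry the same heterozygous allele. The sources used here give no dose, length of treatment or strain background of the mutants, and WT mice given GSK-LSD1 were not analysed here.

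Glucocorticoids cross into the cell and bind the glucocorticoid receptor, a transcription factor that then moves to the nucleus and binds palindromic DNA sites near its target genes. In cortex many of these targets are expressed in astrocytes, oligodendrocytes and blood vessel cells as well as in neurons, and several of them also answer to other signals such as glucose, energy stress or DNA damage. Metallothioneins bind zinc and copper, and their promoters carry metal response elements, the sites of the metal-sensing factor MTF1. Glucocorticoids also raise metallothionein transcripts, which links both groups of genes.

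Library totals ran from 14133834 to 28646960 counts. Shank3 itself had 159 and 148 CPM (counts scaled to a common library size with TMM factors) in treated mutants, 146 and 174 CPM in vehicle mutants and 153 and 160 CPM in WT mice. A count per gene does not show which part of the gene is present, so it does not check the genotype. Excitatory neuron markers summed to between 3091 and 4258 CPM per library with no marker at 0, so the defining markers of the labelled tissue were present. WT library 1 weighed on every comparison with WT: without it edgeR called 6 of all genes in each of the comparisons with WT, against 491 for treated mutants and 238 for vehicle mutants with it. For vehicle mutants over WT the count was also low without vehicle mutant library 1 (8) or 2 (20), and for treated mutants over WT it was 197 without treated mutant library 2. None of the calls of a named gene against WT given below was kept without WT library 1. With 1 library left in a group, that library is assumed to vary like the other groups.

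Of the 10 genes, 4 passed an adjusted p of 0.05 in edgeR's quasi-likelihood test between treated mutants and WT mice, where 2.62% of the 18705 genes tested passed. Tsc22d3, Txnip and Mt1 were higher in treated mutants, where 0.636% of all genes passed as higher, and Zbtb16 was lower, where 1.99% passed as lower. Between vehicle mutants and WT mice 1 of the 10 passed, Tsc22d3, which was higher, against 1.27% of all genes in either direction, 0.278% as higher and 0.994% as lower. Between treated and vehicle mutants edgeR called 0 of the 10, against 0.107% of all genes (0.102% higher and 0.00535% lower). In that comparison 3 of the 10 had an unadjusted p under 0.05 (5.70% of all genes), and DESeq2 and limma-voom each called 0. These comparisons share libraries, since vehicle mutants and WT mice each enter 2 of them, and so their results are not independent of one another. Because the 10 genes were chosen with earlier results of these data known, their counts beside the shares of all genes are descriptions only.

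**Figure D1:**
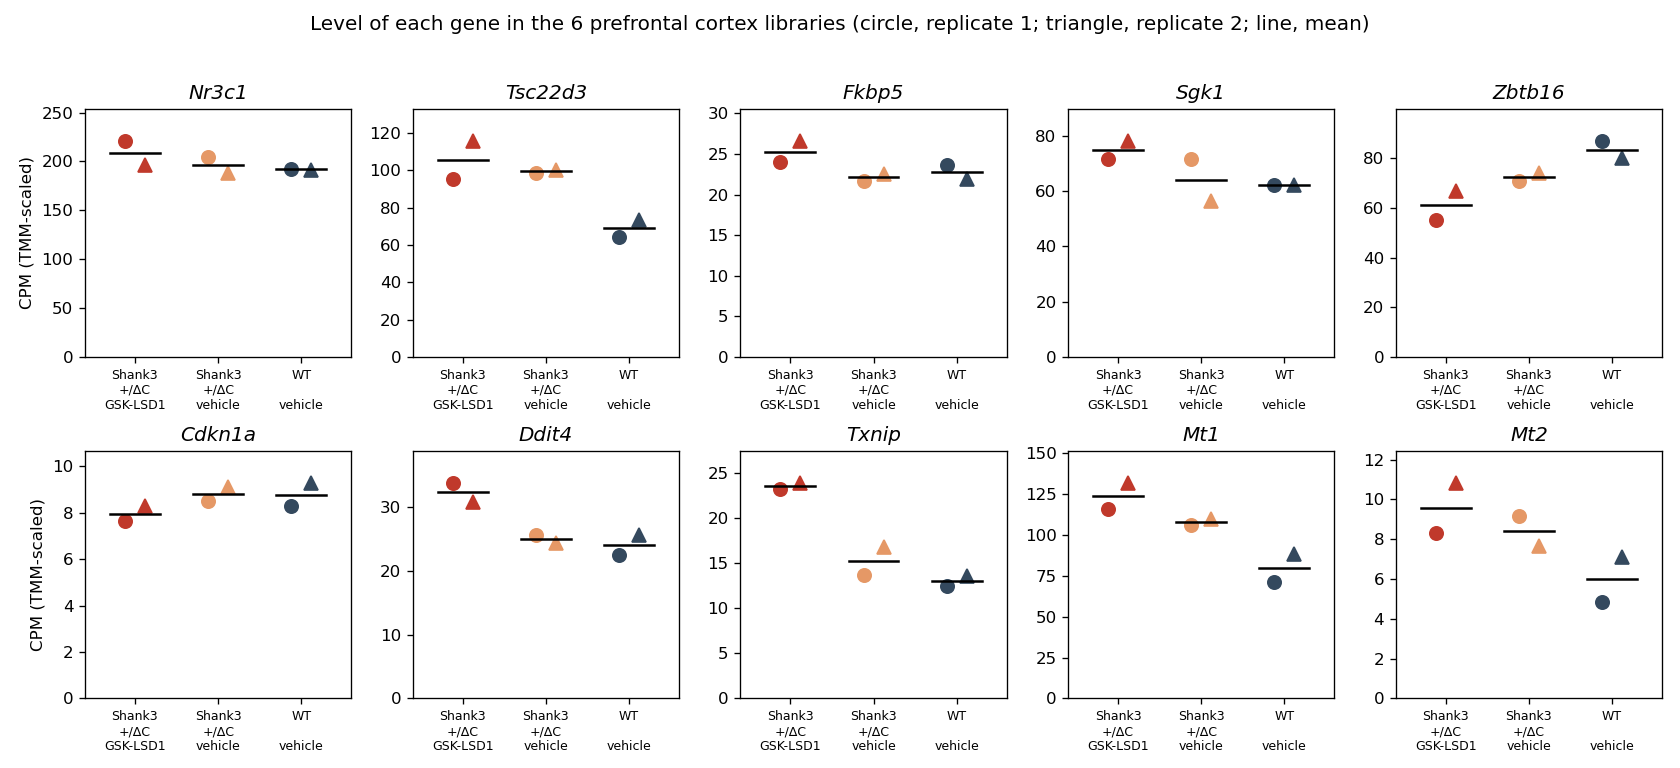
Level of each of the 10 genes in CPM (linear axis from 0, scaled by TMM) in the 6 libraries, with treated mutants on the left, vehicle mutants in the middle and WT mice on the right; circles are replicate 1, triangles replicate 2 and lines the mean. Txnip is high in both treated mutant libraries, and Tsc22d3 and Mt1 are lowest in both WT libraries.

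The 10 genes spanned a wide range of levels per length. In CPM per kilobase of exon (RPKM) averaged over the 6 libraries, Mt1 stood at 83.5, above 97.4% of the 18413 tested genes with a known length. The annotated exons of Mt1 fill its whole span of 1246 bases, so its level per length may be too low. Nr3c1 followed at 25.9 RPKM and Tsc22d3 at 21.0 RPKM. Ddit4 at 15.5 RPKM, Zbtb16 at 13.7 RPKM, Sgk1 at 13.7 RPKM and Mt2 at 13.6 RPKM formed a middle set. In WT mice Tsc22d3 at 15.9 ± 1.47 RPKM, Zbtb16 at 15.8 ± 0.907 RPKM and Ddit4 at 13.7 ± 1.25 RPKM (SD, n = 2 each) lay within about their spread of one another. Txnip at 5.53 RPKM, Fkbp5 at 2.47 RPKM and Cdkn1a at 2.40 RPKM were the lowest. The order of Fkbp5 and Cdkn1a was within the spread, at 2.41 ± 0.128 and 2.47 ± 0.200 RPKM in WT mice (SD, n = 2 each).

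The receptor gene showed no call in any comparison. Nr3c1, which encodes the glucocorticoid receptor and lies at chr18:39410545-39519421 (minus strand, GRCm38), had 220.5 and 196 CPM in treated mutants, 204 and 188 CPM in vehicle mutants and 193 and 191 CPM in WT mice. The treated mutants lay just above both WT libraries, and the other groups overlapped. For treated mutants over WT the log2 fold change was 0.12 ± 0.11 (SE), with a 95% interval of -0.10 to 0.34 and an edgeR adjusted p of 0.652. It was 0.09 ± 0.11 for treated over vehicle mutants (interval -0.13 to 0.31) and 0.03 ± 0.11 for vehicle mutants over WT (interval -0.19 to 0.25). Fkbp5 (chr17:28399094-28517527, minus strand) encodes a co-chaperone that lowers the receptor's affinity for hormone and is itself induced by the receptor. It stood at 24.1 and 26.5 CPM in treated mutants, 21.7 and 22.5 CPM in vehicle mutants and 23.7 and 21.9 CPM in WT mice. Both treated libraries were the highest of the 6, by a margin smaller than the gap between them. Its log2 fold change was 0.19 ± 0.13 for treated over vehicle mutants (edgeR adjusted p = 0.976) and 0.15 ± 0.13 for treated mutants over WT (adjusted p = 0.654).

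Tsc22d3 was higher in both mutant groups than in WT mice. It encodes GILZ, a leucine zipper protein that carries part of the anti-inflammatory action of glucocorticoids, and it lies on the X chromosome (chrX:140539528-140600659, minus strand, GRCm38). Its level was 95.5 and 115 CPM in treated mutants, 98.7 and 100.3 CPM in vehicle mutants and 64.3 and 73.4 CPM in WT mice. All 4 mutant libraries lay above both WT libraries, and the mutant groups overlapped each other. In log2 terms it was 0.61 ± 0.11 higher in treated mutants than in WT (edgeR adjusted p = 0.0112, a 52.6% higher level) and 0.53 ± 0.11 higher in vehicle mutants than in WT (adjusted p = 0.0337, a 44.2% higher level). Between treated and vehicle mutants the log2 fold change was 0.08 ± 0.11 with an interval of -0.16 to 0.32 (adjusted p = 0.996). The call in treated mutants was lost without WT library 1 (0.52, adjusted p = 0.198) and without treated mutant library 2 (0.47, adjusted p = 0.0820). The call in vehicle mutants was lost without WT library 1 (0.43, adjusted p = 0.510), vehicle mutant library 1 (0.53, adjusted p = 0.146) or vehicle mutant library 2 (0.52, adjusted p = 0.187), and it stood at an adjusted p of 0.0541 with limma-voom.

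Txnip was the gene of the 10 with the largest fold change in treated mutants. It encodes a protein that binds thioredoxin and limits glucose uptake, and it is induced by glucose as well as by glucocorticoids. It lies on the plus strand of chromosome 3 (chr3:96557957-96561883, GRCm38). Its level was 23.2 and 23.9 CPM in treated mutants, 13.7 and 16.8 CPM in vehicle mutants and 12.5 and 13.6 CPM in WT mice. Both treated libraries were above all 4 others with a wide gap, and the vehicle mutants lay only just above WT. Treated mutants over WT gave a log2 fold change of 0.85 ± 0.16 (edgeR adjusted p = 0.0101, 79.9% higher). For treated over vehicle mutants it was 0.63 ± 0.15, with an interval of 0.30 to 0.95, an unadjusted p of 7.01e-04, rank 59 among all genes and an edgeR adjusted p of 0.219. For vehicle mutants over WT it was 0.22 ± 0.16 (adjusted p = 0.584). The call against WT was lost without WT library 1 (0.79, adjusted p = 0.149), and the difference between treated and vehicle mutants passed with no filter on low counts (0.63, adjusted p = 0.0387). In the annotation 19.4% of the exonic length of Txnip overlaps the antisense gene Gm15441, which had 0 to 3 counts per library against 183 to 548 for Txnip.

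Mt1 was higher in treated mutants than in WT mice. Mt1 and Mt2 encode the cysteine-rich metal-binding proteins that are made outside the nervous system as well as in astrocytes, and both genes lie on the plus strand of chromosome 8, Mt1 at chr8:94179082-94180327 and Mt2 at chr8:94172664-94173568 (GRCm38), 5513 bases apart. Mt1 had 116 and 132 CPM in treated mutants, 107 and 110.1 CPM in vehicle mutants and 71.5 and 88.2 CPM in WT mice. The 3 groups did not overlap, with treated mutants highest and WT lowest. The log2 fold change was 0.63 ± 0.12 for treated mutants over WT (edgeR adjusted p = 0.0104, 54.7% higher), 0.19 ± 0.12 for treated over vehicle mutants (adjusted p = 0.965) and 0.44 ± 0.12 for vehicle mutants over WT (adjusted p = 0.0717). The call in treated mutants was lost without WT library 1 (0.49, adjusted p = 0.208) and without treated mutant library 2 (0.54, adjusted p = 0.0539). The difference between vehicle mutants and WT passed in 6 of 16 alternatives (other settings or a library left out), DESeq2 among them, and did not pass in the rest. With each library left out, its log2 fold change ran from 0.29 to 0.59.

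Mt2 was not called in any comparison. It had 8.30 and 10.8 CPM in treated mutants, 9.18 and 7.66 CPM in vehicle mutants and 4.85 and 7.11 CPM in WT mice. Both mutant groups lay above WT and overlapped each other. Its log2 fold change of treated mutants over WT, 0.64 ± 0.23, was about as large as that of Mt1 but with a wider error (edgeR adjusted p = 0.159). Treated over vehicle mutants gave 0.17 ± 0.22 and vehicle mutants over WT gave 0.47 ± 0.23 (adjusted p = 0.366). Mt2 was counted with 71 to 200 reads per library, against 1046 to 2741 for Mt1. In the annotation 73.5% of the exonic length of Mt2 overlaps the antisense gene Gm45774, which had 3 to 12 counts per library, and no source used here gives the strand setting of the counting. The Mt2 level is therefore uncertain. Per length, Mt1 stood at 5.47 to 6.95 times Mt2 over the 6 libraries, with no order by group. The annotated exons of Mt1 merge into 1 block of 1246 bases, which is its whole span. Those of Mt2 form 3 blocks of 588 bases in all, and those of Mt3 form 3 blocks of 1066 bases. The size of a ratio of Mt1 to Mt2 or Mt3 per length may thus be too low, while its order between libraries does not depend on length. Mt3, the metallothionein made mainly in brain, lies in the same cluster and had 106 and 129 CPM in treated mutants, 99.8 and 104 CPM in vehicle mutants and 89.9 and 97.9 CPM in WT mice. Its log2 fold change of treated mutants over WT was 0.32 ± 0.11 (edgeR adjusted p = 0.156). The ratio of Mt1 to Mt3 per length was 0.937 and 0.873 in treated mutants, 0.913 and 0.909 in vehicle mutants and 0.681 and 0.770 in WT mice, so both mutant groups lay above WT in it.

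**Figure D2:**
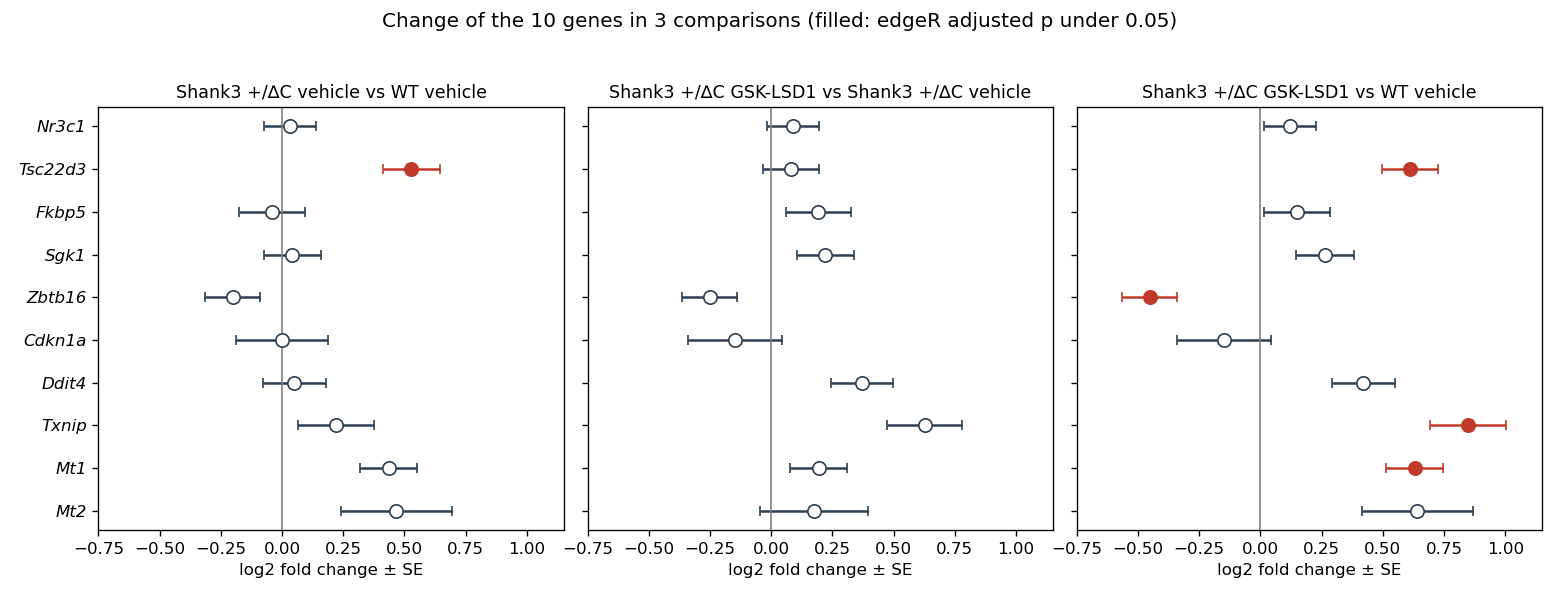
Log2 fold change of each of the 10 genes in 3 panels, vehicle mutants over WT, treated over vehicle mutants and treated mutants over WT, with bars of 1 SE; filled points passed an adjusted p of 0.05. Against WT, Tsc22d3, Txnip and Mt1 lie right of 0 and Zbtb16 left of it in treated mutants, and Tsc22d3 right of it in vehicle mutants.

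The promoters of Mt1, Mt2, Txnip and Tsc22d3 are shown with the sites named above. The set of RefSeq windows used here, of 300 bases (250 before to 50 after a start, build GRCm38.p6), covered 8 of the 10 genes with 16 windows. It held none for Nr3c1 and Zbtb16, which is a limit of that set. Capitals mark matches, on either strand, to the core of the metal response element (TGCACNC or TGCGCNC), the glucocorticoid response element (the palindrome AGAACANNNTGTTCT and its single arm AGAACA) and the E-box CACGTG. The metal core was in 25.7% of all 32851 windows of this length, and 1.97% held 3 or more. The Mt1 window (chr8:94178839-94179138, plus strand) held 3 metal cores and the Mt2 window (chr8:94172368-94172667, plus strand) held 4.
Mt1: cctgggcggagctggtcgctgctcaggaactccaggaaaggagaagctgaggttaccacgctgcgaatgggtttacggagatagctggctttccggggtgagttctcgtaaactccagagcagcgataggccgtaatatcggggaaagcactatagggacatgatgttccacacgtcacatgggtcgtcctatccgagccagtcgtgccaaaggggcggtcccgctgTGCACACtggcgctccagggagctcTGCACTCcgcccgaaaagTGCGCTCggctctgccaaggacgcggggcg
Mt2: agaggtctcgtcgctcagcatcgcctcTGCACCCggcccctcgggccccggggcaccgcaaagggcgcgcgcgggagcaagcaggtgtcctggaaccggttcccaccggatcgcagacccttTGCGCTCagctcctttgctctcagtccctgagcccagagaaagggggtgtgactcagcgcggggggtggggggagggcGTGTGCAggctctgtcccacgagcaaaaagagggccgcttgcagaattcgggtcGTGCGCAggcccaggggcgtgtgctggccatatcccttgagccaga
The Txnip window (chr3:96557707-96558006, plus strand) held 1 metal core, and of the 3 windows of Tsc22d3 the one shown (chrX:140600473-140600772, minus strand) held 1 glucocorticoid arm, a match present in 19% of all windows. The other windows of Tsc22d3 held no match to any of these sites.
Txnip: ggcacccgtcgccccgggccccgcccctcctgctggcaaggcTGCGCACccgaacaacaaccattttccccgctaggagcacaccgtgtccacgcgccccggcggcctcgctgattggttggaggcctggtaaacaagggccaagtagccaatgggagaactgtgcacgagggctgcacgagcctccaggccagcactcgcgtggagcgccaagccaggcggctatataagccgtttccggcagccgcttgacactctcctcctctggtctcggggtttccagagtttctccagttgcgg
Tsc22d3: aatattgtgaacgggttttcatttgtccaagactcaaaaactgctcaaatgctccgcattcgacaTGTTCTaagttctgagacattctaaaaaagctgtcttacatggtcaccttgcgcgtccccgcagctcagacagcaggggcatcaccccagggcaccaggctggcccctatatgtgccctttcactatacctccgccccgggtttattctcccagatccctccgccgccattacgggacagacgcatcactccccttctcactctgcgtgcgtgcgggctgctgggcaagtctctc
Sgk1 was added after its sequence had been searched, because one of its 6 windows (chr10:21993640-21993939, plus strand) holds the whole palindrome, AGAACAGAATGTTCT, at bases -189 to -175 from the start. Only 3 of all 32851 windows (0.00913%) held it. The same window has a further single arm that overlaps an E-box at its 5′ end.
Sgk1: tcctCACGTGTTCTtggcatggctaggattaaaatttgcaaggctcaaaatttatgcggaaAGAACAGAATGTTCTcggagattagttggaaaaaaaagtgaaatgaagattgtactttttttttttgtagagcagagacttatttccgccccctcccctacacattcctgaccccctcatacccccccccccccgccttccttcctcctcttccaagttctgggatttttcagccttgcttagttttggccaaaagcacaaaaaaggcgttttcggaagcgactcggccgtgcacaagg
A match describes the letters alone and shows no binding.

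Sgk1 (chr10:21882184-21999903, plus strand) encodes a kinase that regulates ion channels and transporters and is a classical rapid target of the receptor. Its level was 71.4 and 77.9 CPM in treated mutants, 71.5 and 56.5 CPM in vehicle mutants and 62.1 CPM in each WT library. The treated mutants were above both WT libraries but overlapped the vehicle mutants, which were spread most widely. Treated mutants over WT gave a log2 fold change of 0.26 ± 0.12 (unadjusted p = 0.0383, edgeR adjusted p = 0.283), treated over vehicle mutants 0.22 ± 0.12 and vehicle mutants over WT 0.04 ± 0.12. Ddit4 (chr10:59949669-59951834, minus strand) encodes REDD1, an inhibitor of mTORC1 signalling that is induced by glucocorticoids and energy stress. It had 33.8 and 30.9 CPM in treated mutants, 25.7 and 24.5 CPM in vehicle mutants and 22.6 and 25.7 CPM in WT mice. Both treated libraries stood above all 4 others, and the vehicle mutants overlapped WT. The log2 fold change was 0.42 ± 0.13 for treated mutants over WT (edgeR adjusted p = 0.0966) and 0.37 ± 0.13 for treated over vehicle mutants (unadjusted p = 0.00982, adjusted p = 0.675). Cdkn1a (chr17:29090976-29100727, plus strand), which encodes the cell cycle inhibitor p21 and is also a target of p53, stayed within 7.62 to 9.27 CPM in all 6 libraries. Its log2 fold change of treated mutants over WT was -0.15 ± 0.19, with an interval of -0.55 to 0.25 (edgeR adjusted p = 0.778).

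Zbtb16 was the one gene of the 10 that passed as lower in treated mutants than in WT mice. It encodes the zinc finger transcription factor PLZF, a gene that glucocorticoids strongly induce in many other tissues, and lies on chromosome 9 (chr9:48654297-48836222, minus strand, GRCm38). Its level was 55.3 and 66.8 CPM in treated mutants, 71.0 and 74.0 CPM in vehicle mutants and 86.8 and 80.0 CPM in WT mice. The 3 groups did not overlap, with treated mutants lowest and WT highest. The log2 fold change was -0.45 ± 0.11 for treated mutants over WT (edgeR adjusted p = 0.0402, 26.9% lower), -0.25 ± 0.11 for treated over vehicle mutants (unadjusted p = 0.0396, adjusted p = 0.851) and -0.20 ± 0.11 for vehicle mutants over WT (adjusted p = 0.447). This call passed in 6 of 16 alternatives. It was lost without WT library 1 (-0.40, adjusted p = 0.355), WT library 2 (-0.51, adjusted p = 0.0528), vehicle mutant library 1 (-0.45, adjusted p = 0.0574) or treated mutant library 1 (-0.33, adjusted p = 0.200).

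The 10 genes were chosen with earlier results of these data known, so the medians and counts of this paragraph are descriptions only. Read as a group, the 10 genes had a median log2 fold change of 0.34 for treated mutants over WT, against 0.018 for all genes tested. The median was 0.18 for treated over vehicle mutants, against -0.00071 for all genes, and 0.047 for vehicle mutants over WT, against 0.016. Between treated mutants and WT the libraries of 9 genes did not overlap, 8 with the treated mutants higher and Zbtb16 with them lower, while Cdkn1a overlapped. Among all genes tested 45.8% did not overlap there, 23.5% higher and 22.4% lower. Between treated and vehicle mutants 6 of the 10 did not overlap, 4 higher and 2 lower, against 33.6% of all genes (17.0% higher and 16.6% lower). Between vehicle mutants and WT 5 of the 10 did not overlap, 4 higher and 1 lower, which is near the 46.2% of all genes (23.1% higher and 23.1% lower).

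The other glucocorticoid-responsive genes and the receptor's partners gave 0 or 1 edgeR call per list in each comparison. Over all genes, 2.62% passed for treated mutants over WT and 1.27% for vehicle mutants over WT. Of 22 further glucocorticoid-responsive genes, edgeR called 0 between treated mutants and WT (10 at an unadjusted p under 0.05, against 15.7% of all genes, DESeq2 2, limma-voom 0), with a median log2 fold change of 0.35. The gap junction gene Gjb6 of this list is also on the list of astrocyte markers used below. EdgeR called 0 between treated and vehicle mutants (4 unadjusted, DESeq2 1, limma-voom 0), with a median of 0.17, and 1, the clock gene Per1, as lower in vehicle mutants than in WT, with a median of 0.14. Per1, which glucocorticoids also induce, had 69.9 and 90.2 CPM in treated mutants, 52.0 and 51.7 CPM in vehicle mutants and 80.7 and 69.0 CPM in WT mice. The vehicle mutants alone were low. Its log2 fold change was -0.53 ± 0.13 for vehicle mutants over WT (edgeR adjusted p = 0.0486) and 0.62 ± 0.13 for treated over vehicle mutants (adjusted p = 0.0796). The latter difference passed with DESeq2 (adjusted p = 0.0132) and in edgeR with no filter on low counts (adjusted p = 2.8e-04), but not with limma-voom. The call against WT passed in 7 of 16 alternatives. Among the losses were those without WT library 1 (-0.42, adjusted p = 0.574), vehicle mutant library 1 (-0.54, adjusted p = 0.194) or vehicle mutant library 2 (-0.52, adjusted p = 0.251) and that with limma-voom (adjusted p = 0.0759). The mineralocorticoid receptor gene Nr3c2, which belongs to a list of 14 tested genes of receptor chaperones, co-regulators and hormone handling, had 60.9 and 76.0 CPM in treated mutants, 54.2 and 54.8 CPM in vehicle mutants and 51.1 and 52.8 CPM in WT mice. It was named after its values were seen, and its log2 fold change of treated mutants over WT was 0.39 ± 0.12 (edgeR adjusted p = 0.0842). In that list Ncoa2, a co-activator of the receptor, was lower in treated mutants than in WT (-0.40 ± 0.10, edgeR adjusted p = 0.0473), a call that passed in 4 of 16 alternatives and in 0 of the 6 fits without a library. EdgeR called 0 genes of that list between vehicle mutants and WT (5 unadjusted, DESeq2 1, limma-voom 0) and 0 between treated and vehicle mutants (2 unadjusted, 0 with DESeq2 and with limma-voom).

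Among 20 tested genes of metallothioneins and of zinc and copper handling beside Mt1 and Mt2, the zinc importer gene Slc39a10 was lower than WT in both mutant groups. Its level was 408 and 349.9 CPM in treated mutants, 384 and 407 CPM in vehicle mutants and 544 and 607 CPM in WT mice. All 4 mutant libraries were below both WT libraries. The log2 fold change was -0.60 ± 0.11 for treated mutants (edgeR adjusted p = 0.0118) and -0.54 ± 0.11 for vehicle mutants (adjusted p = 0.0302), calls that passed in 13 and 10 of 16 alternatives. Slc39a12, another zinc importer gene, was higher in vehicle mutants than in WT (0.48 ± 0.11, edgeR adjusted p = 0.0445), a call that passed in 8 of 16 alternatives. The median of this list was -0.01 for treated mutants over WT and 0.03 for vehicle mutants over WT, with 0 calls between treated and vehicle mutants (0 unadjusted, 0 with DESeq2 and with limma-voom).

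Each list around Txnip, Cdkn1a and Ddit4 gave 0 or 1 edgeR call per comparison. Over all genes, 2.62% passed for treated mutants over WT and 1.27% for vehicle mutants over WT. In lists this short, 1 call is already above those shares. Of 10 genes of the thioredoxin system and relatives of Txnip, 1 was called, Mlxip, which encodes a glucose-sensing transcription factor and was lower in treated mutants than in WT (-0.71 ± 0.18, edgeR adjusted p = 0.0494), a call that passed in 6 of 16 alternatives. In the other comparisons of that list edgeR, DESeq2 and limma-voom called 0, with 2 genes at an unadjusted p under 0.05 for vehicle mutants over WT and 0 for treated over vehicle mutants. Of 14 targets of p53, Zmat3, an RNA-binding protein gene, was lower than WT in treated mutants (-0.77 ± 0.12, edgeR adjusted p = 0.00475) and in vehicle mutants (-0.52 ± 0.11, adjusted p = 0.0371). For treated over vehicle mutants edgeR called 0 of the 14 (3 unadjusted), and DESeq2 and limma-voom 1 each. Of 12 tested genes of the integrated stress response and mTORC1 regulation edgeR called 0 in all 3 comparisons. In vehicle mutants over WT 4 of them had an unadjusted p under 0.05, against 2628 of all 18705 genes tested, and DESeq2 called 2 (602 over all genes), both lower, Tsc2 (-0.42 ± 0.10, edgeR adjusted p = 0.0512) and Mtor (-0.38 ± 0.11, edgeR adjusted p = 0.0848). Both are named as the genes of the list with the smallest p. Treated mutants had 4 such unadjusted values over WT and 1 over vehicle mutants, with 0 calls by DESeq2 and limma-voom. Of 10 targets of NRF2, the factor of the oxidative stress response, the cystine transporter gene Slc7a11 was higher in treated mutants than in WT (0.59 ± 0.12, edgeR adjusted p = 0.0154). Of the same 10, edgeR called 0 for vehicle mutants over WT (3 unadjusted, DESeq2 1, limma-voom 0) and 0 for treated over vehicle mutants (0 unadjusted and 0 by both other tools). The medians of these 4 lists lay between -0.01 and 0.22 for treated mutants over WT. All of these calls were lost without WT library 1, with log2 fold changes there of -0.49 for Mlxip, -0.61 and -0.36 for Zmat3 and 0.44 for Slc7a11.

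**Figure D3:**
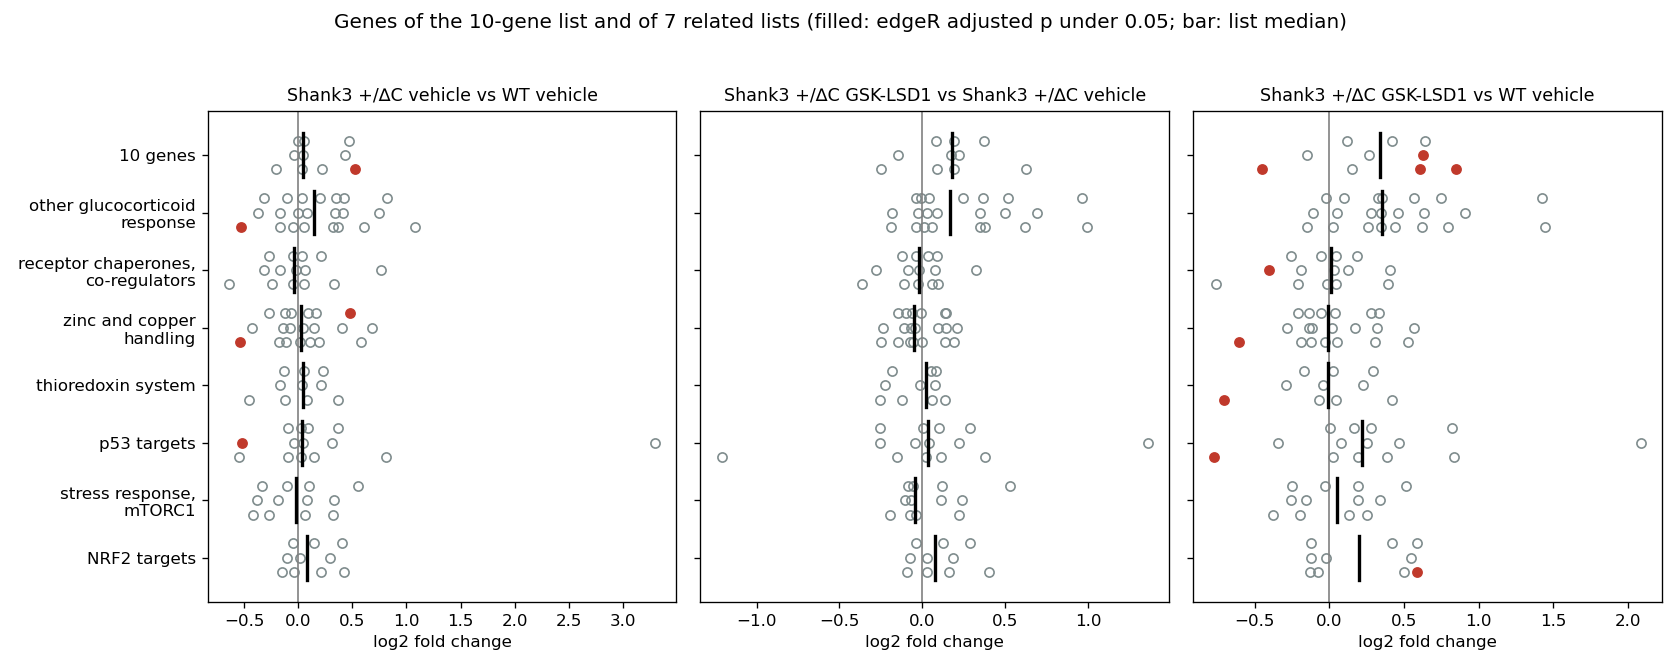
Log2 fold change of the 10 genes and of every tested gene of the 7 pathway lists in 3 panels, vehicle mutants over WT, treated over vehicle mutants and treated mutants over WT; each point is 1 gene, filled points passed an adjusted p of 0.05 in edgeR, and vertical bars mark list medians. The 10 genes and the other glucocorticoid-responsive genes have medians of 0.34 and 0.35 for treated mutants over WT, and the remaining 6 lists have medians from -0.01 to 0.22.

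Some cell type markers also differed between mutants and WT mice. Of 10 astrocyte markers, 4 were higher in treated mutants than in WT (Aqp4, Gja1, Aldh1l1 and Aldoc) and 2 in vehicle mutants (Aqp4 and Gja1), with medians of 0.46 and 0.37 and no marker at 0. Over all genes, 0.636% passed as higher for treated mutants over WT and 0.278% for vehicle mutants over WT. In each of these comparisons 9 astrocyte markers had a positive log2 fold change and 1 a negative one. The summed astrocyte level was 5360 and 5415 CPM in treated mutants, 5360 and 5559 CPM in vehicle mutants and 3946 and 4854 CPM in WT mice, so the mutant groups overlapped each other and lay above WT. Mt1 was higher than WT in treated mutants and Tsc22d3 in both mutant groups, and the part of the astrocyte difference in their levels was not tested. In bulk RNA, more cells of a type and more RNA per cell cannot be told apart. The astrocyte median of treated over vehicle mutants was 0.04, with 0 calls.

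Oligodendrocyte markers, none at 0, summed to 2432 and 5720 CPM in treated mutants, 6014 and 6059 CPM in vehicle mutants and 2603 and 2392 CPM in WT mice. Treated mutant library 1 was thus at the WT level while library 2 was at the level of vehicle mutants. The part of the oligodendrocyte difference in the levels of the 10 genes was not tested. Of these 10 markers edgeR called 0 in all 3 comparisons, with medians of 0.63 for treated mutants over WT, -0.42 for treated over vehicle mutants and 0.98 for vehicle mutants over WT. At an unadjusted p under 0.05 there were 0, 0 and 1 of them in that order, and in the last comparison DESeq2 called 1 and limma-voom 3. Of the excitatory neuron markers, Tbr1 (-0.54 ± 0.12, edgeR adjusted p = 0.0260) and Nrgn (-0.41 ± 0.11, adjusted p = 0.0463) were lower in treated mutants than in WT. Over the 8 tested markers the median in that comparison was -0.33, with 7 log2 fold changes negative and 1 positive. The positive one was Slc17a6, at a mean of 24.0 CPM in treated mutants, 23.2 CPM in vehicle mutants and 15.7 CPM in WT mice. The sums of the excitatory list were 3549 and 3091 CPM in treated mutants, 3504 and 3526 CPM in vehicle mutants and 4258 and 4024 CPM in WT mice. Zbtb16 was lower than WT in treated mutants, and the part of the difference in excitatory neuron markers in its level was not tested.

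Other marker lists gave at most 2 edgeR calls each in a comparison. Over all genes, 0.278% passed as higher for vehicle mutants over WT and 0.636% for treated mutants over WT. In lists this short, 1 call is already above those shares. In vehicle mutants over WT, Gpr17 of 6 oligodendrocyte precursor markers, Itgam of 10 microglia markers, Itm2a of 10 endothelial markers and Rgs5 of 6 pericyte markers were higher. In treated mutants over WT, Clic6 and Kl of 3 tested choroid plexus markers were higher, at list sums of 9.70 and 18.3 CPM in treated mutants, 6.01 and 9.15 CPM in vehicle mutants and 4.65 and 6.35 CPM in WT mice. Clic6 had a mean of 0.052 CPM in WT mice, below the floor of 3 counts per library. In treated mutants it had 1.81 ± 1.96 CPM (SD, n = 2), a spread above its mean, so its call is uncertain. With limma-voom Clic6 did not pass (adjusted p = 0.236), while Kl did. DESeq2 gave no adjusted p for either gene. Of 8 inhibitory neuron markers edgeR, DESeq2 and limma-voom called 0 in all 3 comparisons, with 1 at an unadjusted p under 0.05. Between treated and vehicle mutants the same tools called 0 in every marker list, with at most 4 unadjusted in a list, the endothelial one. The 5 erythrocyte markers summed to 25.4 and 41.6 CPM in treated mutants, 83.6 and 178 CPM in vehicle mutants and 251 and 104 CPM in WT mice. Both treated libraries held the least of them, with 0 calls by edgeR and 3 lower by DESeq2 and by limma-voom for treated mutants over WT, and 4 at an unadjusted p under 0.05. The part of residual blood in the levels of the 10 genes was not tested. Each of the edgeR calls in these marker lists was lost without WT library 1.

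The genes whose levels moved most like each called gene were found by the root mean square difference of log2 CPM profiles, centred on their mean, over the 6 libraries and 10780 genes with a mean of at least 5 CPM. For Mt1, whose profile had an SD of 0.31, the nearest was Aldoc at 0.04, a glycolytic enzyme gene of astrocytes that is also on the astrocyte list. Aldoc had 829 and 962 CPM in treated mutants, 765 and 802 CPM in vehicle mutants and 532 and 681 CPM in WT mice, with the groups in the same order as for Mt1. Acads at 0.04 and Ppp1r3g at 0.05 came next. For Tsc22d3 (SD 0.31) the nearest were Phgdh at 0.05, which encodes an enzyme of serine synthesis, Rlbp1 at 0.05 and Id4 at 0.06. For Txnip (SD 0.40) they were Cbr3 at 0.08, Htr4 at 0.09 and Mmp14 at 0.11, a wider margin than for the other genes. For Zbtb16 (SD 0.22) they were Tcp11l1 at 0.02, Ahsa2 at 0.04 and Nfya at 0.05. These distances describe 6 libraries that share their groups and depth, and near profiles are found for many genes among so many.

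**Figure D4:**
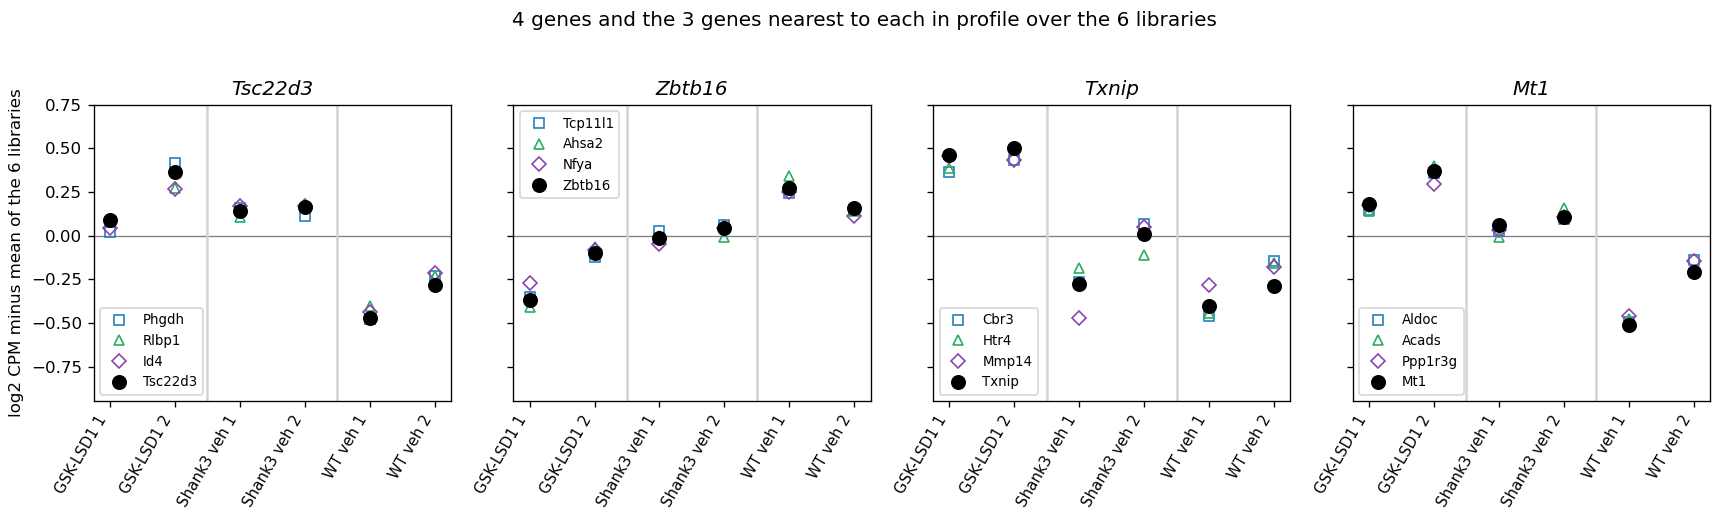
Log2 CPM of each called gene and of its 3 nearest genes in the 6 libraries, centred on each gene's mean, with treated mutants on the left and WT mice on the right. The profiles of Mt1 and Aldoc lie within 0.04 of each other on average, and those of Txnip and its nearest genes are 0.08 to 0.11 apart.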

How the data were processed

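Per the labels' protocols, stranded, ribosome-depleted total RNA libraries were made from 6 prefrontal cortex samples and run on an Illumina machine. The values the authors deposited are raw counts of reads per gene symbol. The submitters' processing notes name cutadapt, TopHat2, SAMtools, featureCounts and edgeR and the build mm10 (GRCm38). Tool versions, annotation and strand setting were not stated. All counts were whole numbers.

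The 10 genes and all lists were chosen with earlier results of these data known. Fits used R 4.3.3 and edgeR 4.0.16 (filterByExpr, TMM, robust quasi-likelihood test, two-sided) on all 6 libraries, so that the groups share 1 estimate of the spread (3 residual degrees of freedom, biological coefficient of variation 11.5%). Benjamini-Hochberg adjustment covered the 18705 genes tested in each comparison. The p-values measure the spread between libraries only. CPM and RPKM were computed from the counts, with coordinates and lengths from GENCODE M21. Of the lists, genes that passed were named, or else those with the smallest p, and for each called gene the 3 genes of nearest profile. Alternatives were other scalings and filters, DESeq2 1.42.0, limma-voom (limma 3.58.1), a fit without robust settings, 4 libraries only, a replicate block and each library left out. The fit was tested on simulated data. A floor of 3 counts per library equals 0.108 to 0.205 CPM, for counting error only. Chi-square per degree of freedom between libraries of 1 group was 9.54 to 12.7, above sampling noise, so each was counted as its own sample. One marker gene is not reported here.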

Additional observations from a re-analysis of the deposited data

How the results depend on the processing

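Each result was recomputed under 16 alternatives. The number of the 10 genes called between vehicle mutants and WT, 1 as reported, was 0 with library size alone, with limma-voom and without robust settings, and 2 with no filter, with DESeq2 and with only the 4 libraries; with each library left out it ran from 0 to 2. Between treated and vehicle mutants it was 1 (Txnip) with no filter, against 0 as reported, and 0 to 0 with each library left out. Between treated mutants and WT, 4 as reported, it ran from 0 (without WT library 1) to 4 with each library left out.

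Signs near 0 turned in few cases, and the cause was not tested. For vehicle mutants over WT, Cdkn1a (-0.0018 as reported) was 0.024 with upper quartile scaling, 0.071 with library size alone, 0.0070 with a filter of 1 CPM, 9.3e-04 with 4 libraries and 0.0039 with the replicate block, and -0.082 to 0.084 with each library left out. Fkbp5 was 0.032 with library size alone and -0.10 to 0.0057 with each library left out. The same ranges were -0.039 to 0.15 for Ddit4, -0.034 to 0.089 for Nr3c1 and -0.14 to 0.20 for Sgk1, and for treated over vehicle mutants -0.0013 to 0.17 for Nr3c1, -0.053 to 0.21 for Tsc22d3 and -0.015 to 0.36 for Mt2.

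With the replicate block, 3 of the 10 genes were called between treated mutants and WT (Zbtb16 at an edgeR adjusted p of 0.0512), 1 between vehicle mutants and WT and 0 between treated and vehicle mutants. No source used here says whether the replicate numbers pair the libraries. Deviations of same-numbered libraries correlated at -0.06, -0.07 and 0.08 over 14477 genes. These values show no large shared deviation by number, but with 2 libraries a group they cannot exclude a pairing.

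Over all genes, 238 calls between vehicle mutants and WT became 35 with library size alone, 807 with no filter, 602 with DESeq2, 11 without robust settings, 141 with upper quartile scaling, 137 with limma-voom, 524 with 4 libraries and 6 to 656 with a library left out. The 491 calls between treated mutants and WT became 254, 962 and 782 with library size alone, no filter and DESeq2, and 6 to 637 with a library left out. The 20 between treated and vehicle mutants became 106 with no filter, 35 with DESeq2 and 10 to 83 with a library left out. With library size alone, 15 calls were higher and 20 lower in vehicle mutants than in WT, against 52 and 186 as reported, and 111 and 143 in treated mutants than in WT, against 119 and 372. Of 25 edgeR calls of named list genes, 25 were lost without WT library 1, 9 without WT library 2, 14 without vehicle mutant library 1, 13 without vehicle mutant library 2, 5 without treated mutant library 1 and 9 without treated mutant library 2. With 2 libraries a group, small differences in genes of few counts such as Mt2 were not detectable.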
